A study of Homo sapiens with 6 samples.

Results

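The HOX cluster genes were described in PC-3 prostate cancer cells and in 2 lines isolated from them, TEM4-18 and TEM2-5. The member list named 37 genes of the HOXA, HOXB, HOXC and HOXD clusters, without HOXB13, and a member was measured where the platform annotation gave a probe set its symbol and no other. That held for 42 probe sets of 27 genes, among 19775 genes with such a probe set in all: 1 of the 10 HOXA members (HOXA2), all 9 HOXB members, all 9 HOXC members and 8 of the 9 HOXD members. The remaining 10, HOXA3 to HOXA13 and HOXD3, were not analysed here; for HOXD3 the annotation used here gave only 3 probe sets shared with HOXD4 and another symbol, which read between 7.77 and 179.9. Total RNA was measured on 6 expression arrays, 2 per line. PC-3 is an established line from a bone metastasis of a prostate cancer, and the TEM lines were isolated, in separate experiments, after PC-3 cells migrated across a confluent layer of human lung microvascular endothelial cells. All 3 lines were cultured in DMEM/F12 with fetal bovine serum, and no treatment or engineered allele is named. Each TEM line is 1 isolate. Whether the 2 arrays of each line represent separate cultures is not stated in the labels, so p-values reflect array-to-array spread, possibly only technical. In RNA from a whole culture, fewer cells with a transcript and less of it per cell cannot be told apart.

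HOX genes encode homeodomain transcription factors that give cells a position along the body axis. They lie in 4 clusters, and within a cluster the genes at one end (the anterior paralog groups) are active early and towards the head, those at the other end (the posterior groups) late and towards the tail. They bind DNA together with TALE cofactors of the PBX, MEIS and PKNOX families, are induced by retinoic acid, are kept silent by Polycomb complexes and are kept active by KMT2 methyltransferases. Adult epithelia, the prostate among them, keep a HOX code of their origin.

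RefSeq start site windows of build GRCh38.p14, running from 250 bases before to 50 after a gene's start, were at hand for 11 of the 27 measured genes. A link between these windows and the levels was not tested. HOXD4 and HOXD8 were the HOXD genes whose brightest probe set was above the level filter on every array. HOXB1, HOXD10, HOXD11 and HOXD12 were below it on every array, and of these HOXD12 is printed. Printed here are the window that HOXC4 and HOXC5 share and those of HOXD4, HOXD8 and HOXD12. All are on the plus strand, at chr12:54016638-54016937 for HOXC4 and HOXC5, chr2:176151300-176151599 for HOXD4, chr2:176129455-176129754 for HOXD8 and chr2:176099545-176099844 for HOXD12. Capitals mark the motif CCAAT on either strand.
HOXC4 and HOXC5: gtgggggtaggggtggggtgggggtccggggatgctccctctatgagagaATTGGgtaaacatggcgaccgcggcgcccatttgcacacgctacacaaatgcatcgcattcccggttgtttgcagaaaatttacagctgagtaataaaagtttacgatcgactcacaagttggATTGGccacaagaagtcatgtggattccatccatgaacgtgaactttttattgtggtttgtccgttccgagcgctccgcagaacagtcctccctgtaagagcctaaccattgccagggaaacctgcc
HOXD4: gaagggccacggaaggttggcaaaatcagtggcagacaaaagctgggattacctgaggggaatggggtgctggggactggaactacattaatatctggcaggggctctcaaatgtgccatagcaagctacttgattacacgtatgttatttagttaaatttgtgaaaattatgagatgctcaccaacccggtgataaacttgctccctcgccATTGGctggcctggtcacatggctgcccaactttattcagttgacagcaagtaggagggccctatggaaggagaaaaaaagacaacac
HOXD8: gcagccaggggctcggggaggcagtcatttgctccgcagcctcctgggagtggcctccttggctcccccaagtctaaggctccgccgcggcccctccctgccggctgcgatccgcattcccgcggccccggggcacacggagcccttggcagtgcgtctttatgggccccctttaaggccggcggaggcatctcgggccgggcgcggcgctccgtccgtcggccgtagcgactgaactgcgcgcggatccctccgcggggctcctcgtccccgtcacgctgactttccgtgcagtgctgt
HOXD12: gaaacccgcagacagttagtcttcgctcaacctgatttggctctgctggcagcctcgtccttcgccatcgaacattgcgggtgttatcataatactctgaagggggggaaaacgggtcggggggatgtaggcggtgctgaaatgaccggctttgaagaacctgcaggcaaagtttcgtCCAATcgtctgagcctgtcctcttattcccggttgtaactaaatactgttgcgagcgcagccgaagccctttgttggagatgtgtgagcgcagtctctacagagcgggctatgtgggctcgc
Besides CCAAT, both strands were searched for a TATA box spelled TATAAA and for TGATNNAT, a form bound by HOX together with PBX proteins. Among 34943 windows of this length, 34.6% held the CCAAT motif, 11.6% held the TATA box and 7.42% held the HOX and PBX form. The shared HOXC4 and HOXC5 window held 2 matches to CCAAT, HOXD4 and HOXD12 held 1 each and HOXD8 held 0. None of these 4 windows held either of the other motifs, and no printed matches overlapped. Among the other windows at hand, those of HOXA2, HOXB1 and HOXD11 held 1 match each to the HOX and PBX form, HOXD13 held 2 overlapping matches to the TATA box, and HOXA2 held 4 to the CCAAT motif. CG dinucleotides numbered 34 in the HOXD8 window, 19 in HOXD12, 15 in the shared HOXC window and 4 in HOXD4, against a median of 14 over all windows. RefSeq gives HOXC4, HOXC5 and HOXC6 the same outermost start, so this window does not tell their transcripts apart.

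Most HOXB and HOXC genes lay above the level filter in all 3 lines, and most HOXD genes lay below it. A gene was counted as above the level filter in a line when a probe set of it exceeded 178 array units, the 40th percentile of all deposited values, on both arrays of that line. Detection calls were not used here, so this marks a level and not presence. In PC-3, 17 of the 27 measured genes were above it: HOXA2, 6 of 9 HOXB genes, 8 of 9 HOXC genes and 2 of 8 HOXD genes. TEM4-18 also had 17, with 6, 7 and 3, and TEM2-5 had 17, with 7, 7 and 2. Of all 19775 named genes, 65.4% were above the filter in PC-3, 63.2% in TEM4-18 and 64.9% in TEM2-5.

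HOXB3, HOXB4, HOXB5, HOXB6, HOXB7 and HOXB9 were above it in all 3 lines, HOXB1 and HOXB8 in none, and HOXB2 in TEM2-5. In HOXC, the genes from HOXC4 to HOXC11 and HOXC13 were above it in PC-3, and HOXC12 was not. HOXC5 was not above it in TEM4-18, nor HOXC8 in TEM2-5. HOXD4 and HOXD8 were above it in every line, HOXD13 in TEM4-18, and HOXD1, HOXD9, HOXD10, HOXD11 and HOXD12 in none. For HOXD4 this rests on 205522_at, since its probe set 1552337_s_at read 13.2 to 203 and was above the filter in no line. The 3 probe sets shared with HOXD3 read between 7.77 and 179.9. HOXD13 rests on 236681_at, and its other probe sets read 10.4 to 150 (207397_s_at) and 12.2 to 60.7 (207398_at). Against the 60th percentile, 520 array units, HOXB3, HOXB5, HOXB6, HOXB9, HOXC6 and HOXC10 exceeded the level on both arrays of every line. By line, 25.9% of the measured HOX genes exceeded it in PC-3 and 29.6% in each TEM line. Of all named genes, 51.8%, 50% and 51% exceeded it in PC-3, TEM4-18 and TEM2-5. HOXC6, a gene often found raised in prostate cancer, read from 5915 to 7146 on the 6 arrays.

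**Figure D1:**
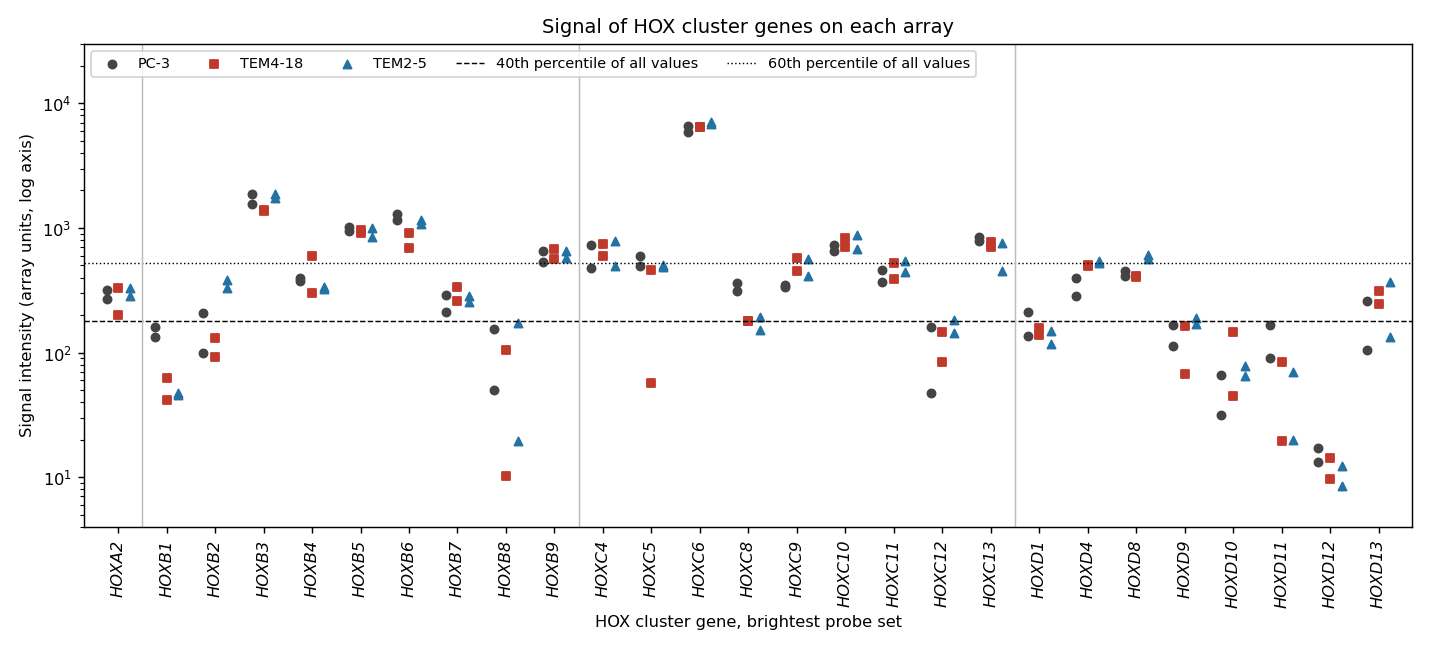
Signal intensity (array units, log axis) of the brightest probe set of each of the 27 measured HOX genes, by cluster and position along the horizontal axis, with 1 point per array coloured by line. HOXC6 lies between 5915 and 7146 on all arrays, and HOXD12 lies between 8.50 and 17.2.

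The 8 genes below the filter on average were not tested. HOXB1, which patterns the hindbrain, read 159.6 and 134 on the PC-3 arrays, 41.3 and 62.0 on the TEM4-18 arrays and 47.1 and 45.5 on the TEM2-5 arrays. Both PC-3 arrays were higher than the 4 TEM arrays, but every one of these signals is below the filter, and the second HOXB1 probe set overlapped between PC-3 and TEM4-18, at 41.5 and 82.5 against 45.7 and 14.4, while its TEM2-5 arrays, at 36.1 and 8.06, were below both PC-3 arrays. On its brightest probe set HOXB8 read between 10.1 and 172, and HOXC12 read between 47.0 and 184. The second HOXB8 probe set (221278_at) read 72.9 and 110 in PC-3, 11.4 and 10.4 in TEM4-18 and 201 and 17.4 in TEM2-5. Its TEM2-5 array at 201 was above the filter. Among the HOXD genes, the ranges of the brightest probe set over the 6 arrays were 117 to 209.99 for HOXD1, 67.0 to 191 for HOXD9, 31.5 to 146 for HOXD10 and 19.3 to 166 for HOXD11. HOXD12, a posterior gene of limb and genital development, stayed under 17.2.

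The first comparison, TEM4-18 against PC-3, asked what differs after passage across the endothelial layer in the PC-3 derived cells. Of the 19 tested HOX genes, 1 was called lower, HOXB6, and 0 were called higher by limma at an adjusted p of 0.05, with 2 at an unadjusted p under 0.05. Over all 13557 tested genes, 29.4% were called in either direction, 16.1% were called lower and 5489 had an unadjusted p under 0.05. The arrays of the lines did not overlap for 7 HOX genes, against 63.3% of all tested genes. The log2 fold changes of the HOX genes ran from -1.34 to 0.58 with a median of 0.04, where the median over all tested genes was -0.04. Their median size was 0.16, against 0.28 for all tested genes. HOX genes were also measured less precisely: the 95% interval of a log2 fold change reached 0.56 to either side in the median HOX gene and 0.32 in the median gene tested, and the median signal was 457 against 1939. For 13 of the 19 the interval lay within a log2 change of 1 in either direction.

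TEM2-5, the second isolate, was compared with the same PC-3 arrays, so the comparisons with PC-3 share their controls. By limma, 0 of the 19 HOX genes were called, while 19.1% of all tested genes were called. An unadjusted p under 0.05 was found for 3 of the 19, against 4480 of all 13557 tested genes. Arrays did not overlap for 9 HOX genes, against 60% of all tested genes. The log2 fold changes ran from -0.80 to 1.05, with a median of 0.08 against -0.02 over all tested genes, and a median size of 0.16 against 0.23. In the direct comparison of TEM4-18 with TEM2-5, limma called 0 HOX genes and 2.77% of all tested genes. Here 3 HOX genes had an unadjusted p under 0.05, against 2017 of all 13557 tested genes. There the arrays of 7 HOX genes did not overlap, against 44.4% of all genes. The median HOX difference was -0.01 on the log2 scale, and the largest were -1.34 for HOXB2 and -1.21 for HOXC5. Without the mean-variance trend, limma called 1 HOX gene in TEM2-5 (HOXC8), and without TEM4-18 replicate 1 it called 1 between the TEM lines (HOXC5); the other alternatives called 0 in both.

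**Figure D2:**
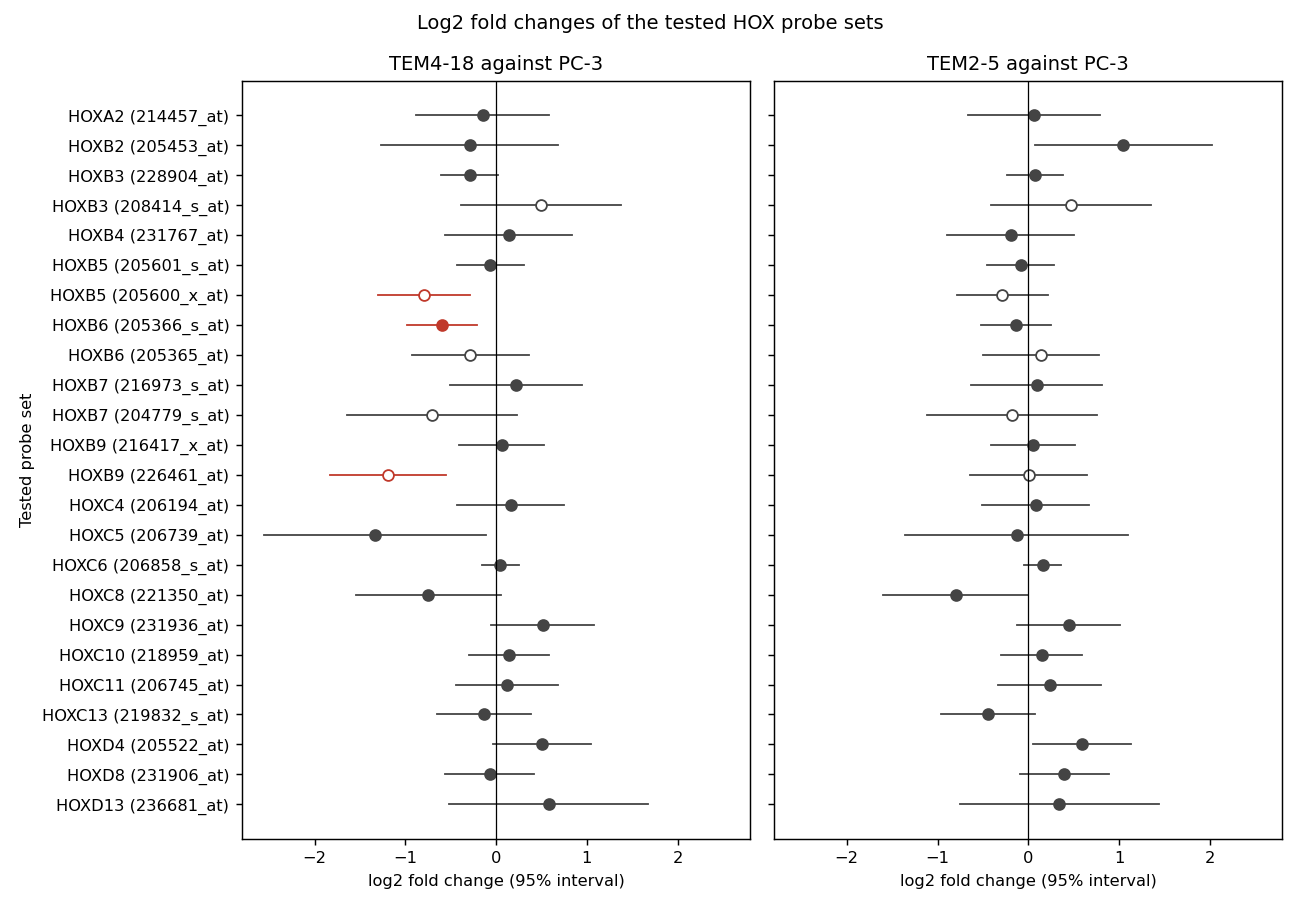
Log2 fold change against PC-3 (horizontal axis, log2(signal + 51.8) scale) of each of the 24 tested HOX probe sets, in cluster order, for TEM4-18 and TEM2-5, with bars for the 95% interval of the fit. Filled points mark the brightest probe set of a gene. Most intervals include 0. After adjustment limma called 3 probe sets in TEM4-18: 205366_s_at of HOXB6, 205600_x_at of HOXB5 and 226461_at of HOXB9. Of these, the HOXB6 probe set is the brightest of its gene.

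**Figure D3:**
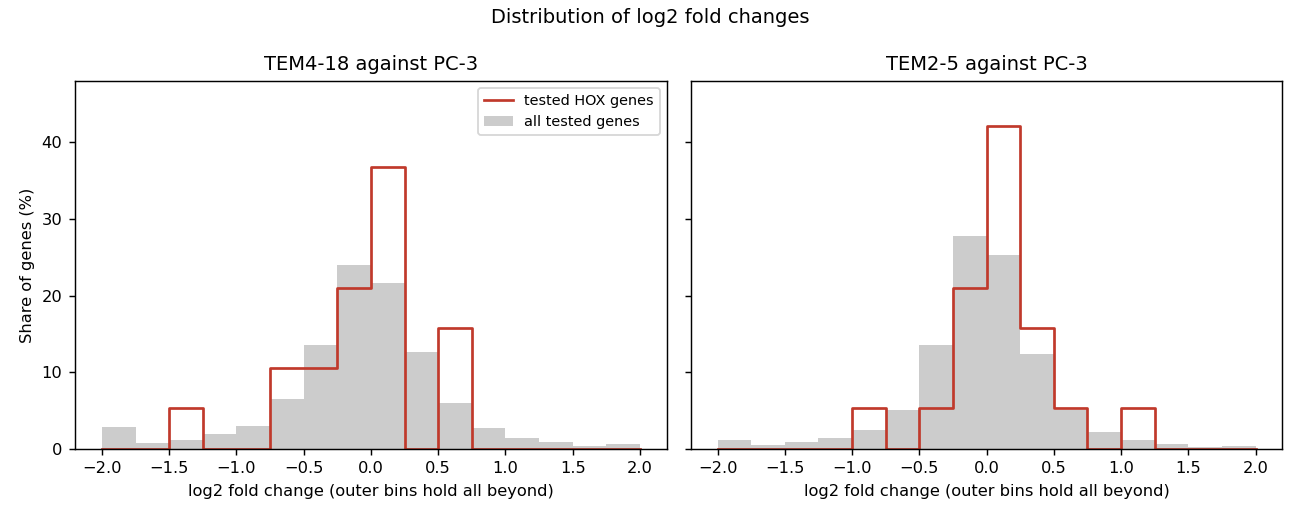
Share of genes (percent) in bins of the log2 fold change against PC-3, for all 13557 tested genes (bars) and the 19 tested HOX genes (line), with the outer bins holding everything beyond. HOX genes lie mainly near 0 in both lines, with medians of 0.04 and 0.08.

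HOXB6, a gene of the middle of its cluster, was the HOX gene that fell in TEM4-18. Its brightest probe set (205366_s_at) read 1168 and 1296 in PC-3, 913 and 695 in TEM4-18 and 1077 and 1148 in TEM2-5. Both TEM4-18 arrays were below all 4 others, and TEM2-5 lay between. The log2 fold change in TEM4-18 was -0.60 ± 0.17 (SE, adjusted p = 0.029, limma), and in TEM2-5 it was -0.14 (adjusted p = 0.653). TEM4-18 was 0.46 lower than TEM2-5 on the log2 scale, a difference of adjusted p = 0.299. The second probe set (205365_at) gave -0.28 in TEM4-18 (adjusted p = 0.535), with arrays at 379 and 287 in PC-3 and 249.98 and 274 in TEM4-18. The call was lost in 6 of 14 alternatives, with adjusted p from 0.021 to 0.182 over all 14. Those 6 were no filter (0.0585), no mean-variance trend (0.0667), averaged probe sets (0.0823), and leaving out PC-3 replicate 1 (0.0568), PC-3 replicate 2 (0.129) or TEM4-18 replicate 2 (0.182).

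Other HOXB genes gave different answers from different probe sets. For HOXB9, a posterior gene of the thoracic region, probe set 226461_at read 585 and 592 in PC-3, 316 and 162 in TEM4-18 and 545 and 637 in TEM2-5. It fell by 1.19 ± 0.29 (SE) on the log2 scale in TEM4-18 (adjusted p = 0.012) and the change in TEM2-5 was 0.0023. TEM4-18 against TEM2-5 gave -1.19 (adjusted p = 0.0791), which did not pass the test. The brighter probe set 216417_x_at read 653 and 532 in PC-3 and 674 and 564 in TEM4-18, a log2 fold change of 0.06 (adjusted p = 0.875). The 2 probe sets therefore disagree on whether HOXB9 RNA is lower in TEM4-18. HOXB5 showed the same split. Its probe set 205600_x_at read 977 and 744 in PC-3 and 551 and 399 in TEM4-18 and fell by 0.80 ± 0.23 (SE; -0.795, adjusted p = 0.026), while 205601_s_at read 942 and 1010.1 against 904 and 956, a change of -0.07 (adjusted p = 0.818). Names ending in _x_at or _s_at mark probes that can match related genes or several transcripts. Counting every tested probe set, 3 of 24 HOX probe sets were called lower in TEM4-18 and 0 higher, against 12.9% of all tested probe sets called lower and 25.8% called in either direction. In TEM2-5 and between the TEM lines limma called 0 of the 24, against 16.4% and 1.8% of all tested probe sets. At an unadjusted p under 0.05 there were 3 and 5 of the 24, against 9633 and 4080 of all 32518 tested probe sets. The HOXB9 call on 226461_at was lost without PC-3 replicate 2 (adjusted p = 0.0516) and without TEM4-18 replicate 2 (0.0742), with a range of 0.0043 to 0.0742 over 12 alternatives. That of HOXB5 on 205600_x_at was lost in 4 of 13: without a filter (0.0699), without the trend (0.0676), without PC-3 replicate 1 (0.157) and without TEM4-18 replicate 2 (0.157), in a range from 0.0216.

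**Figure D4:**
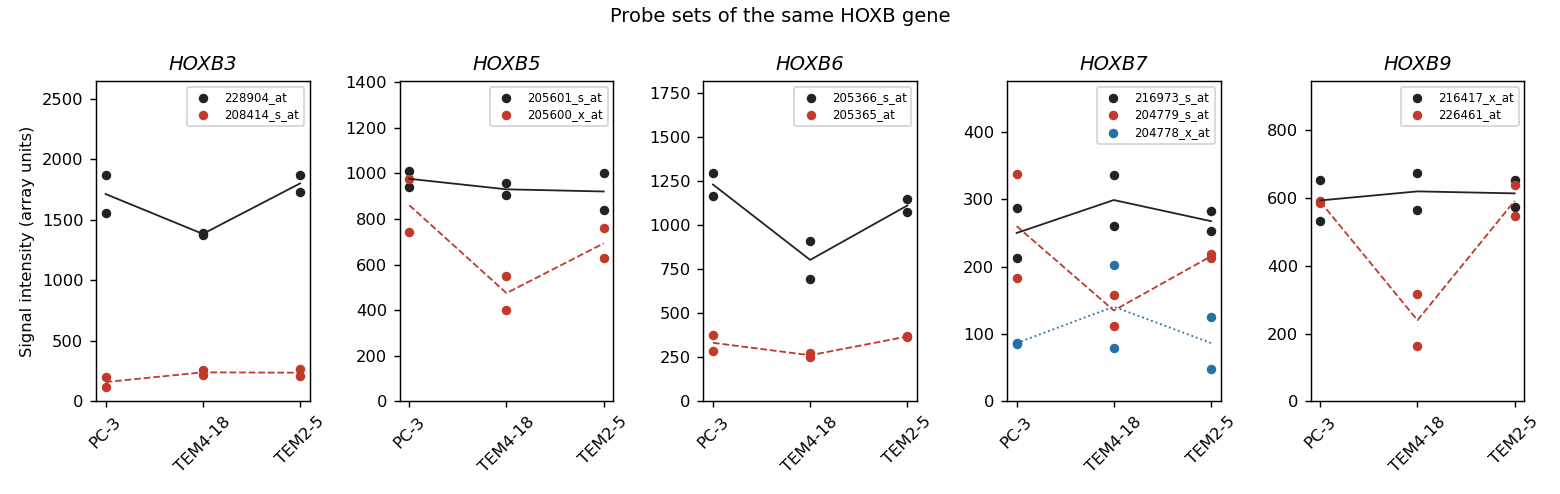
Signal intensity (array units) by line for the probe sets of HOXB3, HOXB5, HOXB6, HOXB7 and HOXB9, with 1 point per array, the lines joining the means and a separate colour for each probe set. In HOXB5 and HOXB9 one probe set drops in TEM4-18 and the other does not.

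The remaining HOXB genes did not pass the test in any comparison. HOXB2, an anterior gene of the hindbrain, read 99.4 and 207 in PC-3, 131 and 91.5 in TEM4-18 and 385 and 331 in TEM2-5. Both TEM2-5 arrays were above the 4 others. The log2 fold change in TEM2-5 was 1.05 ± 0.44 (SE, 95% interval 0.07 to 2.02, adjusted p = 0.140), and the difference of TEM4-18 from TEM2-5 was -1.34 (adjusted p = 0.214). HOXB3 read 1553 and 1872 in PC-3, 1375 and 1392 in TEM4-18 and 1730.1 and 1871 in TEM2-5, and its change in TEM4-18 was -0.29 (interval -0.60 to 0.02, adjusted p = 0.163). Its dimmer probe set, 208414_s_at, gave 0.49 with an interval from -0.39 to 1.37. HOXB4, known for its action in blood stem cells, read 375 and 393 in PC-3 and 301 and 599.8 in TEM4-18, so the line's 2 arrays lay on either side of PC-3. HOXB7 read 287 and 213 in PC-3 against 261 and 337 in TEM4-18 on its brightest probe set, a change of 0.22, and the probe set 204779_s_at gave -0.71 (adjusted p = 0.264). Over the 7 tested HOXB genes the median log2 fold change was -0.07 in TEM4-18 and 0.05 in TEM2-5.

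None of the 8 tested HOXC genes was called. Over all tested genes, 29.4% were called in TEM4-18, 19.1% in TEM2-5 and 2.77% between the TEM lines. HOXC4 read 725 and 479.97 in PC-3, 739 and 599 in TEM4-18 and 789 and 497 in TEM2-5, with log2 fold changes of 0.16 and 0.08 against PC-3. HOXC5, its neighbour with the shared start, read 494 and 600.4 in PC-3, 461 and 57.3 in TEM4-18 and 488 and 502 in TEM2-5. The 2 TEM4-18 arrays disagree, and the fold change of -1.34 ± 0.55 (SE, interval -2.56 to -0.11, adjusted p = 0.107) rests on the array at 57.3. Without TEM4-18 replicate 1 limma called it, at -2.45 and adjusted p = 0.000861. Without TEM4-18 replicate 2 the fold change was -0.22. The HOXC5 difference between the TEM lines rests on the same array: it was -0.09 without TEM4-18 replicate 2 (adjusted p = 0.967) and -2.33 without replicate 1 (0.00857). HOXC6 changed by 0.04 in TEM4-18 (interval -0.16 to 0.25) and by 0.16 in TEM2-5 (interval -0.04 to 0.36), the narrowest intervals among the HOX genes.

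HOXC8 and HOXC9, in the middle of the cluster, had fold changes of opposite sign that did not pass the test. HOXC8 read 314 and 361 in PC-3, 179.7 and 179.2 in TEM4-18 and 151 and 193 in TEM2-5. Both PC-3 arrays were above the 4 TEM arrays, with log2 fold changes of -0.75 (interval -1.55 to 0.05, adjusted p = 0.163) and -0.80 (interval -1.60 to -0.0027, adjusted p = 0.167). Without the mean-variance trend limma called both, at adjusted p = 0.027 and 0.0403, and the TEM signals stood close to the filter. HOXC9 read 351 and 333 in PC-3, 577 and 450.2 in TEM4-18 and 564 and 413 in TEM2-5. All 4 TEM arrays were above PC-3, with changes of 0.51 (interval -0.05 to 1.08, adjusted p = 0.176) and 0.44 (adjusted p = 0.286). HOXC10 and HOXC11, posterior genes of the lumbar region, overlapped between PC-3 and both TEM lines, with changes from 0.12 to 0.23. HOXC13, which acts in hair follicles, read 839.8 and 789.7 in PC-3, 768 and 708 in TEM4-18 and 451 and 753 in TEM2-5, and the change in TEM2-5 was -0.45 (interval -0.96 to 0.07, adjusted p = 0.237). Leaving out the TEM2-5 array at 451 gave -0.11 for HOXC13, and leaving out the other gave -0.79. The median over the 8 tested HOXC genes was 0.08 in TEM4-18 and 0.11 in TEM2-5.

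Of the HOXD genes, 3 were tested and none was called, against the same 29.4%, 19.1% and 2.77% of all tested genes. HOXD4 read 396 and 284 in PC-3, 498 and 502 in TEM4-18 and 525 and 540.2 in TEM2-5. The TEM arrays were above both PC-3 arrays, with log2 fold changes of 0.51 (interval -0.03 to 1.05, adjusted p = 0.161) and 0.59 (interval 0.05 to 1.13, adjusted p = 0.132). HOXD8 read 410.5 and 454 in PC-3, 401 and 415 in TEM4-18 and 605 and 565 in TEM2-5, a change of 0.40 in TEM2-5 (interval -0.10 to 0.89, adjusted p = 0.272). TEM4-18 was 0.47 lower than TEM2-5 (adjusted p = 0.432). HOXD13, the most posterior gene of its cluster and a limb patterning factor, read 259 and 105 in PC-3, 246 and 312 in TEM4-18 and 132 and 369.9 in TEM2-5, so all 3 lines overlapped. HOXA2, which patterns the second branchial arch, was the HOXA gene measured and read between 201 and 328 on all arrays, with a change of -0.15 in TEM4-18 and 0.06 in TEM2-5.

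Genes that act with or on HOX genes, in lists chosen with earlier results of these data known, included called members. The TALE list also held TGIF1 and TGIF2, outside the PBX, MEIS and PKNOX families. Of its 10 tested genes, 1 rose and 2 fell in TEM4-18 (median -0.05) and 1 rose and 1 fell in TEM2-5 (median 0.22). Over all tested genes 29.4% and 19.1% were called, so these shares are near the background. The gene that rose in TEM2-5 was TGIF1, by 0.35 (adjusted p = 0.0447, limma), a call kept in 6 of 14 alternatives. In TEM4-18 the calls of MEIS3 and PKNOX1 were each lost in 3 alternatives, among them averaged probe sets and leaving out TEM4-18 replicate 1 (up to 0.281 and 0.125). MEIS2, a DNA-binding partner of HOX proteins, read 3371 and 3506 in PC-3, 1228 and 1317 in TEM4-18 and 2389 and 2537 in TEM2-5. It fell by 1.40 ± 0.12 (SE) in TEM4-18 (adjusted p = 1.39e-05) and by 0.47 in TEM2-5 (adjusted p = 0.0209), and the TEM lines differed by 0.93 (adjusted p = 0.00248). The TEM2-5 call was lost in 5 of 14 alternatives, which were no trend and leaving out any 1 PC-3 or TEM2-5 array (up to 0.127), and the difference between the TEM lines was lost without the trend (0.0647). The KMT2 list also held DOT1L, which lies outside the KMT2 complexes. Of the 13 tested genes on this list, 4 rose and 0 fell in TEM4-18 (median 0.16), against the same 29.4%. In TEM2-5, 1 rose and 0 fell (median 0.10), against 19.1%. In TEM4-18 the calls of KMT2A, KMT2D and WDR5 were lost with averaged probe sets (adjusted p = 0.377, 0.253 and 0.91), that of KMT2D in 4 and that of WDR5 in 10 of 14 alternatives. PSIP1 kept its call in all 14. PSIP1, which tethers the KMT2A complex to chromatin, rose by 1.13 ± 0.10 (SE) in TEM4-18 and 0.83 in TEM2-5, from 4249 and 3897 in PC-3 to 9287 and 8670 and to 6705 and 7894.

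The Polycomb list also held KDM6B, which is no subunit of a Polycomb complex. Of the 22 tested genes on this list, 5 rose and 2 fell in TEM4-18 (median 0.02), against 29.4% of all tested genes called. In TEM2-5, 4 rose and 2 fell (median 0.13), against 19.1%. With averaged probe sets the TEM4-18 calls of JARID2 (adjusted p = 0.3), PCGF2 (0.332) and SUZ12 were lost. CBX2, a chromatin reader of Polycomb complex PRC1, read 2048 and 2010 in PC-3, 404 and 319 in TEM4-18 and 937 and 476 in TEM2-5. It fell by 2.34 ± 0.27 (SE) in TEM4-18 (adjusted p = 0.000115) and the change in TEM2-5 was -1.53 (adjusted p = 0.00342). With averaged probe sets the CBX2 change was -1.31 in TEM4-18, still called, and -0.42 in TEM2-5 (adjusted p = 0.221), where the call was also lost without the trend. SUZ12, a core subunit of PRC2, rose by 0.75 and 0.62 on its brightest probe set, and its averaged probe sets gave -0.00033 and -0.012. EZH2, another PRC2 subunit, fell by 0.38 in TEM2-5 (adjusted p = 0.0243, limma). Its change in TEM4-18 was -0.24 (adjusted p = 0.0999), and its alternatives are not given here. Of 11 tested retinoic acid genes, 2 rose and 2 fell in TEM4-18 (median 0.05) and 0 rose and 2 fell in TEM2-5 (median 0.08). The same 29.4% and 19.1% are the background for this list and for the upstream factors below. ALDH1A3, which makes retinoic acid, fell by 2.20 ± 0.12 (SE) in TEM4-18, from 53827 and 58032 in PC-3 to 10461 and 14079 and to 21947 and 24812 in TEM2-5, where the change was -1.26. CRABP2, which carries retinoic acid to the nucleus, rose by 1.13 in TEM4-18 (adjusted p = 2.91e-05), and its change in TEM2-5 was 0.23 (adjusted p = 0.169). Of 3 tested upstream factors, GBX2, a homeobox gene of the hindbrain border, rose in both lines, by 1.92 and 1.67. With averaged probe sets the ALDH1A3 changes were -1.16 and -0.91, both called. Between the TEM lines, the called genes of these lists were MEIS2, ALDH1A3 (-0.94) and CRABP2 (0.89), while 2.77% of all tested genes were called. By list, that was 1 lower among 10 tested TALE genes, and 1 higher and 1 lower among 11 retinoic acid genes. The ALDH1A3 call was lost without the trend and with averaged probe sets (-0.26, adjusted p = 0.521), and that of CRABP2 without the trend (0.138).

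Of 25 tested genes flanking the clusters, 4 rose and 4 fell in TEM4-18 (median -0.07) and 4 rose and 4 fell in TEM2-5 (median 0.03), against 29.4% and 19.1% of all tested genes called. SKAP2 and SNX10, which flank the HOXA cluster, fell, with changes of -1.08 and -1.89 in TEM4-18 and of -0.84 and -1.06 in TEM2-5. HNRNPA3, beyond the HOXD cluster, rose by 1.41 and 1.11. The SKAP2 call in TEM2-5 was lost with averaged probe sets (adjusted p = 0.107). Of 8 tested noncoding RNAs of the clusters, limma called 0 in each of the 3 comparisons, with medians of -0.16, -0.16 and 0.03; HOTAIR, between HOXC11 and HOXC12, read 223 and 329 in PC-3 and 256 and 137 in TEM4-18.

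HOXB13, the HOXB gene next in line beyond HOXB9 and a factor of prostate identity, is no member but stands beside them. It rose by 0.69 (209844_at) and 1.61 (230105_at) in TEM4-18 and by 0.44 and 1.17 in TEM2-5. The TEM2-5 call on 209844_at was lost in 5 of 13 alternatives, among them leaving out PC-3 replicate 2 or either TEM2-5 array (up to 0.168). A probe set in the HOXA cluster annotated jointly to HOXA10-AS and MIR196B (231365_at), named after its values were seen, read 2319 and 2454 in PC-3, 484 and 602 in TEM4-18 and 579 and 539 in TEM2-5. Its log2 fold changes were -2.04 (adjusted p = 1.38e-05) and -1.998 (adjusted p = 4.61e-05), and the TEM lines differed by -0.04 (adjusted p = 0.956). No single gene was assigned to it.

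**Figure D5:**
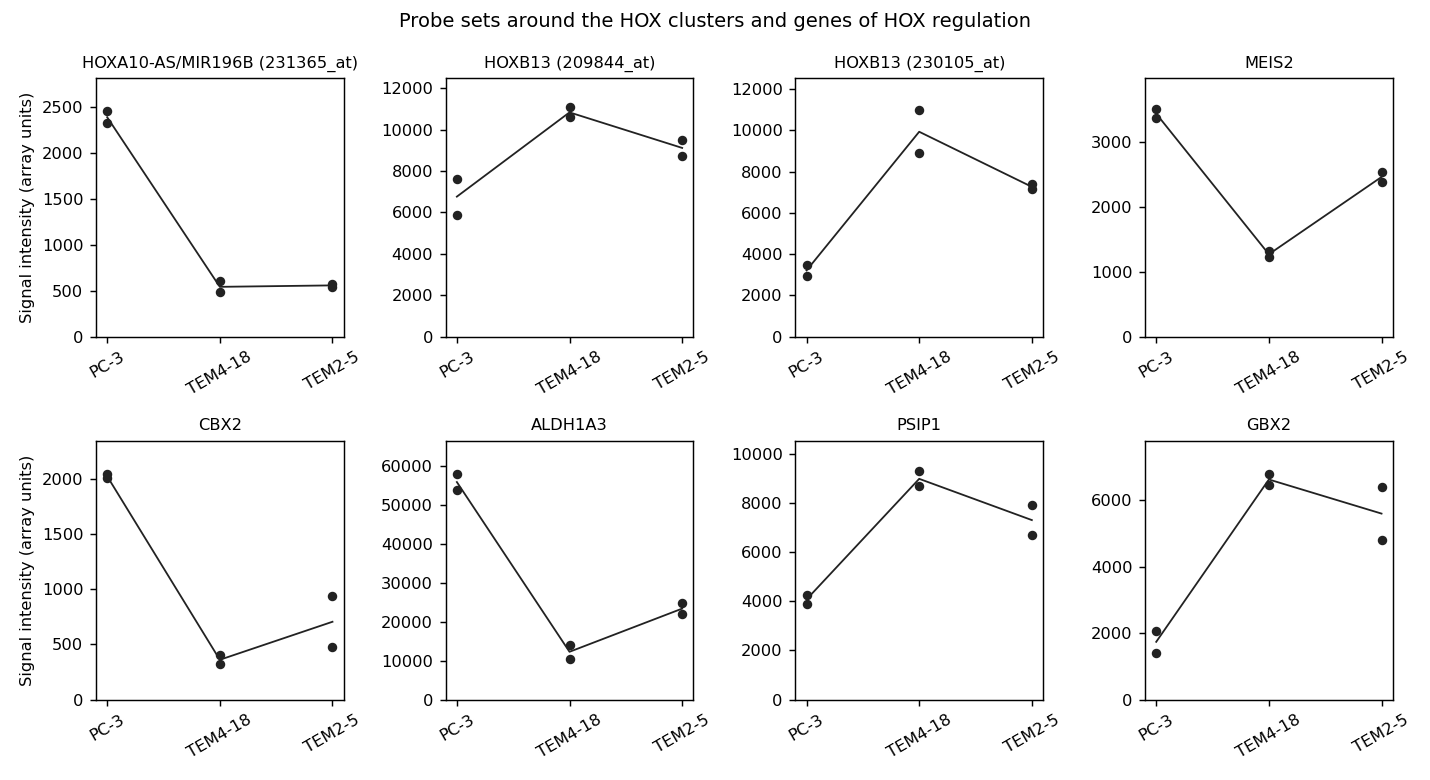
Signal intensity (array units) by line of the joint HOXA10-AS and MIR196B probe set, both HOXB13 probe sets and MEIS2, CBX2, ALDH1A3, PSIP1 and GBX2, with 1 point per array and lines joining the means. In each panel the 2 PC-3 arrays lie apart from the 4 TEM arrays.

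Across the series, array medians lay between 267 and 317 and the 2 arrays within a line correlated at 0.976 to 0.980 over log2 signals of the tested probe sets. In each line replicate 1 had the higher median: 317 and 282 in PC-3, 296 and 267 in TEM4-18, 310 and 281 in TEM2-5. Whether same-numbered arrays share a batch was not tested. The labelled cell type carried its epithelial markers in PC-3, where KRT8 read 23433 and 22688. Of the 5 tested epithelial and prostate markers, 0 rose and 4 fell in both TEM lines, and the summed signal was 139175 to 143853 in PC-3, 38035 to 40094 in TEM4-18 and 52244 to 55194 in TEM2-5. Over all tested genes 29.4% were called in TEM4-18 and 19.1% in TEM2-5, the background for each marker count given here. Among 14 endothelial markers 6 were tested, and 3 rose in TEM4-18 and 2 in TEM2-5, with summed signals of 3359 to 3426, 4648 to 5900.1 and 4724 to 4999.9. KDR, a receptor for VEGF, read 306 and 146 in PC-3, 1869.98 and 975 in TEM4-18 and 1243 and 1258 in TEM2-5, and rose by 2.40 and 2.29 (adjusted p = 0.000342 and 0.000931, limma). ESAM rose by 1.40 in TEM4-18, ROBO4 rose by 0.73 and 0.78 with its calls lost in 6 of 14 alternatives in each line (up to 0.215 and 0.218), and PECAM1 read 505 to 1073 on the 6 arrays. CDH5, VWF, TEK and TIE1, which also mark endothelium, were below the filter on average. Fibroblast markers summed to 9526 to 11160.0 in PC-3, 20479 to 23645 in TEM4-18 and 22422 to 25934 in TEM2-5. Of the 6 tested, 1 rose and 2 fell in TEM4-18 and 2 rose and 0 fell in TEM2-5. COL1A1, a collagen chain, carried most of each sum, at 6869 and 8299 in PC-3, 18862 and 22388 in TEM4-18 and 18052 and 21919.9 in TEM2-5, and rose by 1.44 and 1.39. LUM fell by 3.18 in TEM4-18. PDGFRA fell by 0.77 in TEM4-18, a call lost in 5 of 14 alternatives (up to 0.175), and rose by 1.32 in TEM2-5, a call lost with averaged probe sets (0.212). Whether other cells took part in the HOX values was not tested.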

How the data were processed

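The authors deposited linear signal intensities for 54675 probe sets. Per the submitters' processing notes they come from MAS5; its version and the genome build are not given in the sources used here. The 2% trimmed mean was 1500.17 to 1500.18 on all arrays, so no further scaling was applied. Intensities were taken as log2(value + 51.8), the 20th percentile of all deposited values, which understates changes of low genes. The 62 controls and probe sets with a 6-array mean under 178 were left out, leaving 32518. limma 3.58.1 in R 4.3.3 (lmFit on 3 line means, 3 residual degrees of freedom, eBayes with trend) gave two-sided tests, adjusted by Benjamini-Hochberg over every tested probe set, with a threshold of 0.05. The brightest single-symbol probe set stood for a gene. Symbols and neighbours came from RefSeq. Precision is limited by the number of arrays. Members and lists were chosen with earlier results of these data known. Named were all members, and of each list a selection of genes that did not always hold the largest called changes. Called genes with large changes in their list that were left out include CDH1, EPCAM, DHRS3 and TAX1BP1. Alternatives covered the pseudocount, the filter, quantile normalization, the trend, a replicate block, averaged probe sets and leaving out each array. The fit was tested on simulated data. For the array titled TEM2-5_2 the source name gives replicate 1; the title was used.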

Additional observations from a re-analysis of the deposited data

How the results depend on the processing

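The count of HOX genes lower in TEM4-18 (1) was 0 with no filter on low values and 0 with all probe sets averaged, and 0 to 2 when 1 array was left out. In TEM2-5 the count of 0 became 1 without the mean-variance trend, and between the TEM lines it became 0 to 1 when 1 array was left out. At the 60th percentile, 7, 8 and 8 of the 27 measured HOX genes were above the level in PC-3, TEM4-18 and TEM2-5. These shares were 25.9%, 29.6% and 29.6%, against 51.8%, 50% and 51% of all named genes. With all probe sets averaged, WDR5 reversed to -0.026 in TEM4-18, and SUZ12 to -0.00033 in TEM4-18 and -0.012 in TEM2-5, neither past the threshold. Deviations of same-numbered arrays correlated under 0.1 (0.0649, 0.0827 and 0.0968), so the numbers were not taken as pairs, and a shared batch was not tested; with the replicate block, 1 HOX gene was called lower in TEM4-18, and all genes called were 4479, 3145 and 547 in the 3 comparisons against 3987, 2596 and 375. Without the trend those were 2370, 1050 and 80. Between the TEM lines they were 201 with no filter, 249 with averaged probe sets and as few as 152 without 1 array. In TEM2-5 against PC-3 leaving out PC-3 replicate 2 gave 1633, and leaving out the first or second TEM2-5 array gave 1504 or 1452. The causes were not tested. The median signal was 457 for tested HOX genes and 1939 for all tested genes; its part in the counts was not tested.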
